A study of Sus scrofa with 4 samples.

Results

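The 8 genes described here serve the display of peptides by MHC class I molecules, and were followed in single-cell transcriptomes of regenerated bone from Bama mini-pigs, a small pig breed (Sus scrofa). They are the class I heavy-chain loci SLA-1 and LOC100513601 of the swine leukocyte antigen complex, the peptide transporter subunits TAP1 and TAP2, the loading factor TAPBP, the trimming peptidases ERAP1 and ERAP2, and the regulator NLRC5. The 8 were chosen by symbol from the 20648 genes in the deposited matrices, with measured values of these libraries already known, and all 8 were found. Which of those values decided the choice is not recorded. The series compares a peptide called 1797 with a control peptide, with 2 libraries of each. All animals were 8 months old, and the labels give the same strain and tissue for both groups. It is not stated whether separate animals gave the 2 libraries within a group, and p-values may therefore reflect technical spread alone. Other control samples named in the series design were not analysed here. Levels over cell classes are therefore descriptions, and the differences between the peptide groups are read the same way, beside the output of a fit across all genes.

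MHC class I molecules carry short peptides from inside the cell to its surface, where cytotoxic T cells and natural killer cells read them. The proteasome cuts the peptides, the TAP1 and TAP2 heterodimer pumps them into the endoplasmic reticulum, TAPBP (tapasin) holds the empty heavy chain at the transporter, and ERAP1 and ERAP2 trim the peptides to their final length. NLRC5 is the transactivator of class I genes, and interferon-gamma raises the whole pathway. The bone-forming, bone-resorbing and blood-forming cells of bone all carry class I, at levels that differ by lineage.

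After filtering and removal of 1798 called doublets, 49137 of 54060 barcodes were kept. The 1797 libraries held 12218 and 12688 of them, and the control libraries 12765 and 11466. The median depth was 3863 and 3145.5 UMIs per cell in the 1797 libraries, against 5345 and 4606 UMIs in the control libraries. The 1797 library 1 stood apart in 1159 barcodes under 200 genes, where the others had 55 to 309, and in a median mitochondrial share of 4.18% against 2.82% to 2.97% in the other libraries. Between 34 and 45 kept barcodes were shared by any pair of libraries. Cells were grouped without the 8 genes into 31 clusters, which were named from marker lists, and a name such as T cell-like means only that a cluster carries those markers. Cells of bone were found by their markers: a cluster of 745 cells carried all 12 stromal or osteoblast markers, and another of 1636 cells carried 6 of 8 osteoclast markers. The stromal or osteoblast-like cluster also carried all 9 chondrocyte markers, and the osteoclast-like one, with a median of 867 to 942 UMIs per cell, 7 of 9 macrophage markers. The deep macrophage-like cluster of 1684 cells in turn carried 7 of 8 osteoclast markers beside all 9 macrophage markers. A large cluster of 11209 cells carried CSF3R and CXCR2, receptors of neutrophils, but only 3 of 8 neutrophil markers. Neutrophil was its best-scoring type (1.85, against 1.49 for monocyte). Its 10 leading genes held 0 neutrophil markers and 1 of the monocyte list, TREM1, so it is called the CSF3R CXCR2 cluster. Cells of 11 classes numbered at least 50 in each library and were compared. Clusters without a name held 9.67% of cells and are left out of the class values. Levels are UMI counts scaled to the total of a class in a library (CPM), and they are not compared between genes.

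No gene passed an adjusted p of 0.05 in edgeR's quasi-likelihood test, neither in the sum of all cells (0% of 16654 genes) nor in any of the 11 class fits (0% of 120990 tests). At an unadjusted p of 0.05 there were 264 genes in all cells and 6462 tests over the classes, 1.585% and 5.341% of those made. With DESeq2 18 genes passed in all cells and 420 over the class fits, among them 17 results for the 8 genes: SLA-1 in 9 fits, ERAP2 in 6 and LOC100513601 in 2. Of the 82 pairs of gene and class that could be tested, 49 had both 1797 libraries on one side of both control libraries. The missing pairs were 6 of the 8 genes in osteoclast-like cells, where too few counts were left. For comparison, both 1797 libraries lay above both control libraries in 14.5% of all tests over the classes and below them in 20.7%. In all cells the corresponding shares were 12.6% and 12.2%. Class by class, the shares above and below were 15.4% and 13.2% in neutrophil-like, 14.4% and 27.6% in monocyte-like, 17.8% and 25.3% in macrophage-like and 11% and 19.6% in osteoclast-like cells. They were 17.4% and 18% in dendritic cell-like, 15.1% and 19.3% in T cell-like, 11.8% and 19.7% in NK or cytotoxic T-like and 14.7% and 24.8% in B cell-like cells. In endothelial-like cells they were 13.2% and 20.4%, in stromal or osteoblast-like cells 16.5% and 15.3%, and in the CSF3R CXCR2 cluster 9.6% and 23.6%. These shares stand beside the counts, and nothing is read from them, since the genes were chosen with these values known.

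**Figure D1:**
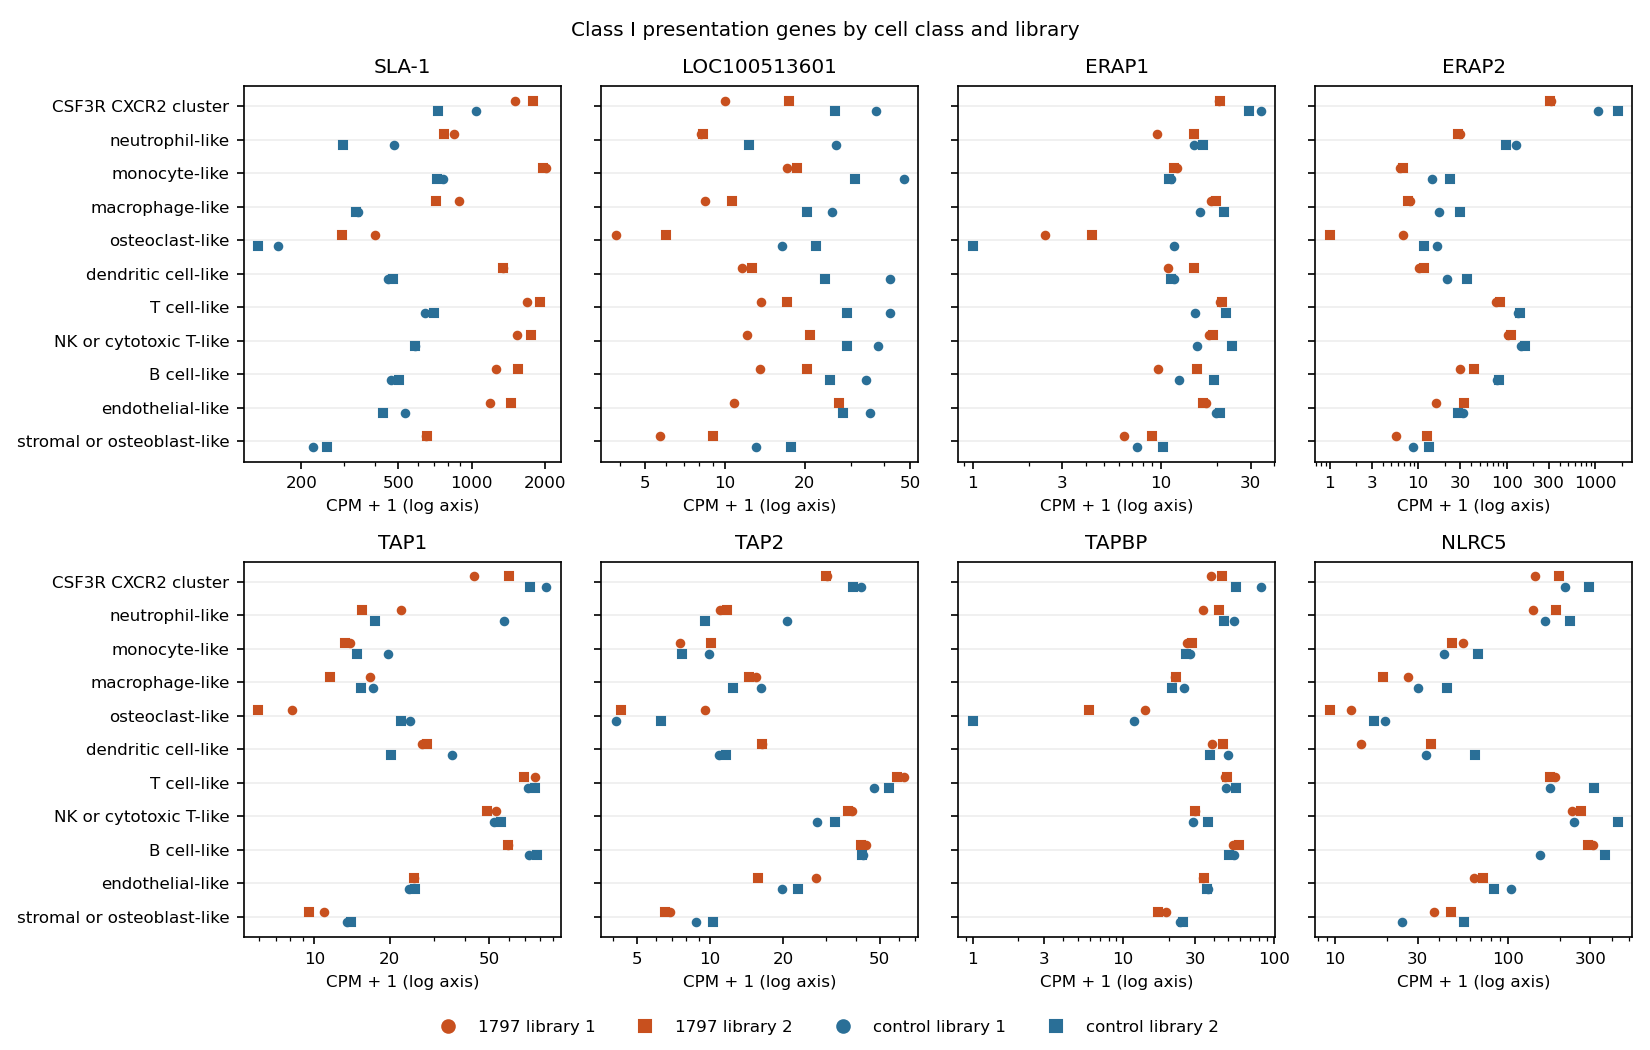
Level of each gene in 11 cell classes, as CPM + 1 on a log axis, with 1 point per library (1797 libraries drawn above control libraries in each class). SLA-1 points of the 1797 libraries lie to the right of the control points in 11 of 11 classes, and ERAP2 in the CSF3R CXCR2 cluster lies above the other 10 classes in all 4 libraries.

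SLA-1, a classical class I heavy chain that presents peptides to cytotoxic T cells, was higher in the 1797 libraries in every one of the 11 classes. In the sum of all cells it had 1274 and 1380.2 CPM in the 1797 libraries, against 566 and 508 CPM in the control libraries. The groups did not overlap, and the log2 fold change was 1.29 ± 0.20 (SE), eighth of 16654 genes by p but with an edgeR adjusted p of 1.0. Nothing is read from ranks by p, here and below, since the genes were chosen with values of these libraries known. The labels give no SLA genotype or haplotype for the animals. For SLA-1 and LOC100513601 alike, differences of SLA alleles between animals therefore cannot be told apart here from differences between the peptides. Fewer cells of a class with much SLA-1 and less SLA-1 per cell cannot be told apart in such a sum, so the classes follow one by one. Without 1797 library 1, the library that stood apart, the log2 fold changes in all cells were 1.42 for SLA-1, -0.998 for LOC100513601 and -1.32 for ERAP2.

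Among the lymphoid classes the values lay close together within each group. T cell-like cells had 1692 and 1901 CPM of SLA-1 in the 1797 libraries, against 642 and 698 CPM in the control libraries. For NK or cytotoxic T-like cells the levels were 1535 and 1752 CPM, against 586 and 584 CPM in the control libraries. B cell-like cells had 1260.1 and 1548 CPM with 1797, against 465 and 500.2 CPM with the control peptide. The log2 fold changes were 1.44 ± 0.12, 1.54 ± 0.13 and 1.60 ± 0.15 in these 3 classes (SE), the last being the largest of the 11. SLA-1 ranked first by p in each of the 3, with edgeR adjusted p of 0.166, 0.17 and 0.281.

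The myeloid classes showed the same direction. Monocyte-like cells had the highest mean SLA-1 level over the 4 libraries (1368 ± 726 CPM, SD), with 2030.0 and 1963 CPM in the 1797 libraries, against 759 and 720.1 CPM in the control libraries. Macrophage-like cells had 890.2 and 717 CPM, against 339.8 and 333 CPM with the control peptide. This class joins a shallow cluster, a deep one and a small one of 88 cells, and most of it came from the deep cluster in 1797 library 2 (619 of 898 cells) but from the shallow cluster in control library 2 (611 of 884 cells). SLA-1 did not overlap between groups in either, with 2398 and 2453 CPM against 870.2 and 1037 CPM in the shallow cluster, and 806 and 686 CPM against 281 and 256 CPM in the deep one. The shallow cluster, taken alone, thus lay above monocyte-like cells in each library, while the class as a whole lay below them. Dendritic cell-like cells had 1348 and 1344 CPM with 1797, against 451 and 477 CPM in the control libraries, a log2 fold change of 1.54 ± 0.15 with the lowest edgeR adjusted p of any class, 0.145. Neutrophil-like cells had 846 and 772 CPM, against 481 and 296 CPM with the control peptide, and the first library of each group held only 151 and 73 of these cells. The CSF3R CXCR2 cluster had 1509 and 1795 CPM in the 1797 libraries, against 1042 and 726 CPM in the control libraries, and its log2 fold change of 1.07 ± 0.35 was the smallest.

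The cells of bone and vessel had the same direction, with the lowest SLA-1 levels in bone cells. Stromal or osteoblast-like cells had 651 and 654 CPM of SLA-1 with 1797, against 222 and 255 CPM with the control peptide, and a log2 fold change of 1.43 ± 0.26. The osteoclast-like class had 401 and 292 CPM in the 1797 libraries, against 159 and 132 CPM in the control libraries, its mean of 246 ± 125 CPM over the 4 libraries being the lowest of the classes. Endothelial-like cells had 1187 and 1448 CPM, against 534 and 434 CPM in the control libraries. Over the 11 classes the edgeR adjusted p ran from 0.145 to 0.999. None of the 10 neighbouring pairs of classes in the order of SLA-1 levels had library ranges that did not overlap, since each range spans both peptide groups. Compared within each library, T cell-like lay above NK or cytotoxic T-like cells, and these above B cell-like cells, in 4 of 4 libraries. So did endothelial-like above neutrophil-like, macrophage-like above stromal or osteoblast-like, and these above osteoclast-like cells. The other neighbouring pairs kept their order in only 2 or 3 libraries.

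LOC100513601 went the other way. Its model on chromosome 7 (22888616 to 22920154, Sscrofa11.1, RefSeq) lies wholly within that of SLA-1 (22824137 to 22920154), sharing 31539 bases, and RefSeq lists SLA-1 and SLA-1a among its synonyms. SLA-5 lies within the SLA-1 model too, and SLA-2 (22916747 to 22959405) overlaps both by 3408 bases. How reads from such overlapping, closely similar loci were divided is not given in the sources used here, so the level of each locus is uncertain. The part of this division in the results below was not tested. In all cells LOC100513601 had 10.1 and 14.2 CPM in the 1797 libraries, against 35.9 and 23.2 CPM in the control libraries, a log2 fold change of -1.29 ± 0.36 (SE, edgeR adjusted p of 1.0).

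The 1797 libraries were below both control libraries in each of the 10 classes where LOC100513601 could be tested. In the shallow macrophage-like cluster, taken alone, the groups overlapped, with 17.5 and 55.1 CPM against 74.4 and 45.9 CPM. The log2 fold changes ran from -1.52 ± 0.37 in dendritic cell-like cells to -0.79 ± 0.28 in B cell-like cells, with edgeR adjusted p from 0.502 to 1.0. T cell-like cells had 12.7 and 16.1 CPM, against 41.1 and 28.0 CPM in the control libraries. Monocyte-like cells, the class with the highest mean (27.5 ± 14.0 CPM, SD over the 4 libraries), had 16.1 and 17.6 CPM with 1797, against 46.3 and 30.1 CPM with the control peptide. The shallow macrophage-like cluster, taken alone, was higher than these in each library. The groups came nearest in endothelial-like cells, with 9.78 and 25.9 CPM in the 1797 libraries against 34.4 and 27.0 CPM in the control libraries. Counts were small in places: neutrophil-like cells of 1797 library 1 held 5 UMIs of this gene, and the osteoclast-like class held 2 and 3 UMIs, against 10 and 4 UMIs in the control libraries.

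The share of LOC100513601 differed between the libraries of the peptide groups in every class, where SLA alleles of the animals cannot be told apart from the peptide. LOC100513601 made up 0.787% (95% exact binomial interval 0.735% to 0.842%) and 1.02% (0.968% to 1.08%) of the SLA-1 and LOC100513601 UMIs in the 1797 libraries, against 5.96% (5.76% to 6.17%) and 4.36% (4.19% to 4.55%) in the control libraries, in all cells. The intervals cover counting error only. The class medians were 0.78% and 1.13% with 1797, against 6.02% and 4.57% with the control peptide, and both 1797 libraries were lower in 11 of 11 classes. The highest share among the 1797 classes was 1.76%, and the lowest among the control classes was 3.32%. The share of SLA-1 among the UMIs of 8 class I loci was likewise apart, with class medians of 48.2% and 52.3% with 1797, against 27.2% and 24.7% with the control peptide. Summed over these 8 loci, class I transcripts had 2708 and 2639 CPM in the 1797 libraries, against 2144 and 2043 CPM in the control libraries, in all cells. The sum was higher in both 1797 libraries in 9 of 11 classes and overlapped in the others.

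**Figure D2:**
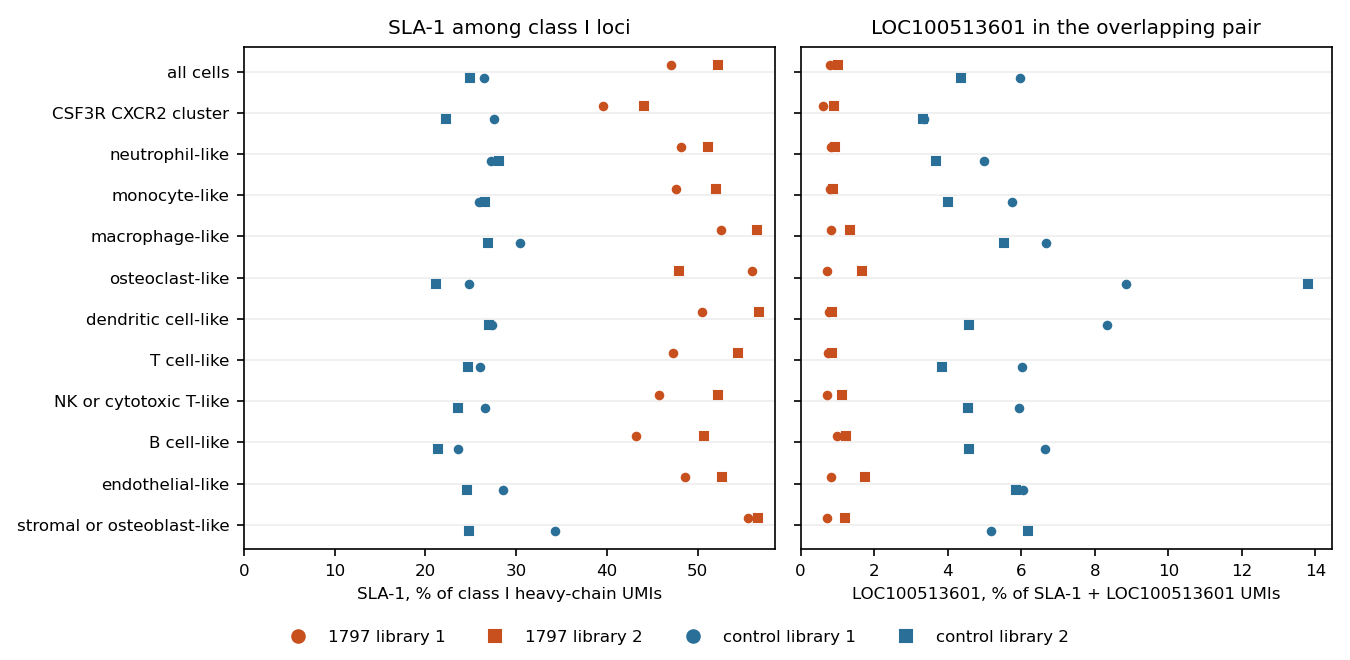
Left, SLA-1 as percent of the UMIs of 8 class I heavy-chain loci. Right, LOC100513601 as percent of SLA-1 and LOC100513601 UMIs together, by class and library (1797 libraries drawn above control libraries). The 1797 points lie between 39.6% and 56.8% on the left, above control points of 21.2% to 34.3%, and at 0.596% to 1.76% on the right, below control points of 3.32% to 13.8%.

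Of the other class I genes, SLA-2, a classical heavy chain, had 1011 and 781 CPM in the 1797 libraries, against 1077 and 1180.2 CPM in the control libraries, in all cells. SLA-3, also classical, had 274 and 360.0 CPM, against 306 and 216 CPM with the control peptide, and the groups overlapped. SLA-6, a nonclassical locus, had 100.5 and 73.3 CPM with 1797, against 118 and 72.5 CPM in the control libraries, and SLA-5 was below 1 CPM in every library. Of the 8 measured genes of a list of other class I genes with B2M, 3 were higher and 5 lower in the 1797 libraries, the median log2 fold change was -0.18 against -0.02 over all genes, and 0 passed edgeR's test. B2M, the invariant light chain of every class I molecule, was looked up after these values were seen and had 1427 and 1521 CPM, against 1587 and 1737 CPM in the control libraries (log2 fold change -0.19 ± 0.19).

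**Figure D3:**
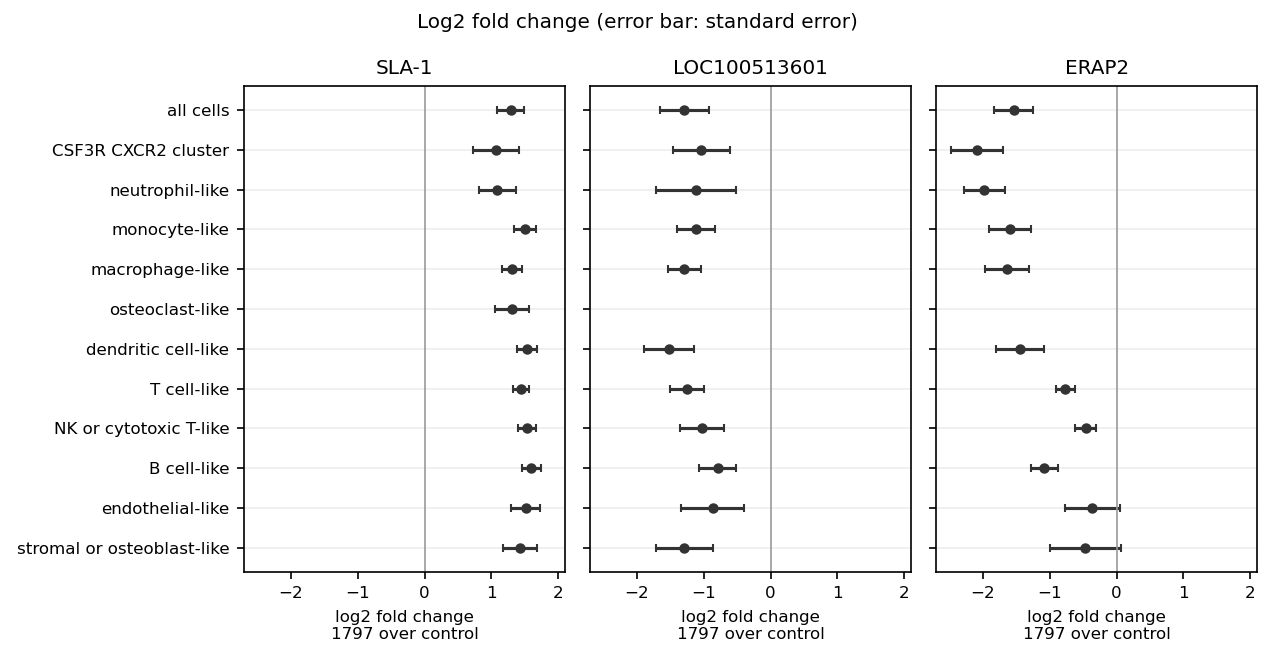
Log2 fold change, 1797 over control, of SLA-1, LOC100513601 and ERAP2 in all cells and in each class, with the edgeR standard error as error bar. SLA-1 lies between 1.07 and 1.60 over the classes, LOC100513601 between -1.52 and -0.79, and ERAP2 between -2.09 and -0.36; a missing point marks a class with too few counts to test.

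TAP1 and TAP2, the subunits of the peptide pump, were highest in lymphoid classes and differed little between the peptide groups. In all cells TAP1 had 38.8 and 35.0 CPM in the 1797 libraries, against 50.1 and 38.9 CPM in the control libraries (log2 fold change -0.29 ± 0.22, SE, edgeR adjusted p of 1.0). TAP2 had 30.7 and 27.7 CPM with 1797, against 30.2 and 24.6 CPM with the control peptide (0.07 ± 0.21, adjusted p of 1.0 in edgeR). The TAP1 groups stood barely apart and the TAP2 groups overlapped.

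T cell-like cells had the highest mean of both, 72.4 ± 3.84 CPM of TAP1 and 55.0 ± 6.63 CPM of TAP2 (SD over the 4 libraries). For TAP2 they came first in 4 of 4 libraries, ahead of B cell-like cells (41.8 ± 0.781 CPM) with no overlap of the ranges. TAP1 in B cell-like cells (66.4 ± 9.34 CPM) and in the CSF3R CXCR2 cluster (64.5 ± 17.8 CPM) overlapped with the T cell-like range. The lowest mean of TAP1 was in stromal or osteoblast-like cells, with 8.53 to 13.0 CPM over the libraries, and of TAP2 in osteoclast-like cells, 5.06 ± 2.54 CPM. T cell-like cells had 75.7 and 67.9 CPM of TAP1 in the 1797 libraries, against 70.5 and 75.5 CPM in the control libraries, and the groups crossed.

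TAP1 was below in both 1797 libraries in 5 of 11 classes and above in 0, beside 20.7% and 14.5% of all tests over the classes. B cell-like cells had 58.6 and 58.5 CPM, against 71.6 and 77.0 CPM in the control libraries (-0.28 ± 0.15). The CSF3R CXCR2 cluster had 42.5 and 59.4 CPM with 1797, against 84.0 and 72.0 CPM (-0.44 ± 0.34), and stromal or osteoblast-like cells had 9.95 and 8.53 CPM, against 12.5 and 13.0 CPM (-0.47 ± 0.34). Monocyte-like cells had 12.9 and 12.3 CPM in the 1797 libraries, against 18.8 and 13.8 CPM in the control libraries (-0.31 ± 0.26). The largest fold was in osteoclast-like cells (-1.76 ± 0.72), which rested on 5 and 3 UMIs with 1797, against 15 and 4 UMIs with the control peptide.

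TAP2 was split by direction. Dendritic cell-like cells had 15.3 CPM in both 1797 libraries, against 9.85 and 10.7 CPM in the control libraries (0.58 ± 0.30). T cell-like cells had 61.7 and 58.1 CPM, against 46.3 and 53.9 CPM (0.28 ± 0.15), and NK or cytotoxic T-like cells had 37.5 and 36.1 CPM, against 26.6 and 31.7 CPM (0.39 ± 0.20). In contrast, stromal or osteoblast-like cells had 5.83 and 5.52 CPM with 1797, against 7.79 and 9.28 CPM with the control peptide (-0.62 ± 0.39), and the CSF3R CXCR2 cluster had 29.2 and 28.9 CPM, against 40.9 and 37.7 CPM (-0.29 ± 0.28). The edgeR adjusted p of these TAP2 differences lay between 0.873 and 1.0, and the difference between the classes was not tested.

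TAPBP, which tethers class I to the transporter, was highest in B cell-like cells in both 1797 libraries and in the CSF3R CXCR2 cluster in both control libraries. In all cells it had 34.8 and 38.3 CPM in the 1797 libraries, against 42.1 and 40.4 CPM in the control libraries (log2 fold change -0.19 ± 0.20, edgeR adjusted p of 1.0). The highest means over the 4 libraries were those of the CSF3R CXCR2 cluster (54.4 ± 19.0 CPM), B cell-like cells (53.2 ± 3.30 CPM) and T cell-like cells (49.1 ± 3.81 CPM), whose ranges overlapped. Both 1797 libraries were below both control libraries in 4 of 10 classes and above in 0, beside 20.7% and 14.5% of all tests over the classes. The CSF3R CXCR2 cluster had 37.4 and 44.4 CPM with 1797, against 80.7 and 55.1 CPM with the control peptide (-0.56 ± 0.32). Stromal or osteoblast-like cells had 18.2 and 16.1 CPM, against 22.9 and 24.1 CPM (-0.47 ± 0.30), and neutrophil-like cells had 32.7 and 42.6 CPM, against 53.4 and 45.5 CPM (-0.34 ± 0.34). Endothelial-like cells differed by only -0.04 ± 0.27. The edgeR adjusted p of TAPBP was at least 0.846 in every class.

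Of 8 other genes of the loading machinery, 1 was higher and 7 lower in the 1797 libraries in all cells, with a median log2 fold change of -0.22 against -0.02 over all genes and 0 passing edgeR's test. CALR, the chaperone calreticulin, had 179.8 and 229 CPM in the 1797 libraries, against 249 and 220.1 CPM in the control libraries. CANX, calnexin, had 183 and 207 CPM, against 156 and 191 CPM with the control peptide. PDIA3, the thiol oxidoreductase of the loading complex, had 163 and 154 CPM with 1797, against 161 and 169 CPM. TAPBPL, a peptide editor related to tapasin, had 9.28 and 9.80 CPM, against 11.5 and 10.8 CPM in the control libraries. CALR, CANX and PDIA3 overlapped between the groups. Over the class fits, 30 of 86 tests of this list had both 1797 libraries below both control libraries, 34.9% beside 20.7% for all genes. This was not particular to the list. The other lists of pathway genes described here ran from 22.9% (other class I genes with B2M) to 34.5% (immunoproteasome and activator).

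ERAP1, the aminopeptidase that trims peptides from their free end in the endoplasmic reticulum, hardly differed between the groups. In all cells it had 14.0 and 16.4 CPM in the 1797 libraries, against 14.0 and 17.5 CPM in the control libraries, which overlapped (log2 fold change -0.06 ± 0.25, edgeR adjusted p of 1.0). Its highest mean was in the CSF3R CXCR2 cluster, 25.1 ± 6.71 CPM, followed by T cell-like cells with 18.7 ± 3.13 CPM, but T cell-like cells came first in both 1797 libraries. The lowest was in osteoclast-like cells, 3.88 ± 4.80 CPM, where control library 2 held 0 UMIs. In the CSF3R CXCR2 cluster ERAP1 had 19.3 and 19.7 CPM with 1797, against 32.9 and 28.4 CPM with the control peptide (-0.50 ± 0.29). Endothelial-like cells had 16.3 and 15.7 CPM, against 18.8 and 19.7 CPM (-0.21 ± 0.33), while monocyte-like cells had 11.2 and 10.7 CPM, against 10.3 and 10.0 CPM (0.18 ± 0.24). The groups overlapped in the other 7 classes tested, and the edgeR adjusted p was at least 0.86 throughout.

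ERAP2, its paralogue on chromosome 2 (103510425 to 103563482, Sscrofa11.1, RefSeq, on the same chromosome as ERAP1 at 103378428 to 103415066), was far higher in the CSF3R CXCR2 cluster than in the other classes and was lower with 1797. The CSF3R CXCR2 cluster had the highest level in 4 of 4 libraries, with 316 and 306 CPM in the 1797 libraries, against 1078 and 1797 CPM in the control libraries. Next came NK or cytotoxic T-like cells with a mean of 129.6 ± 27.1 CPM and T cell-like cells with 108 ± 33.3 CPM (SD over the 4 libraries). The cluster's range did not overlap with that of any of the other 10 classes. At the other end, stromal or osteoblast-like cells had 9.12 ± 3.57 CPM, and osteoclast-like cells held 4 and 0 UMIs of ERAP2 in the 1797 libraries, against 10 and 2 UMIs in the control libraries. Neutrophil-like cells, which share CSF3R and CXCR2 with the cluster, had a mean of 69.95 ± 49.98 CPM. This class joins several clusters. The largest, 1363 cells led by S100A12, S100A8 and S100A9, had 48.0 and 67.1 CPM with 1797, against 246 and 259 CPM with the control peptide. The first library of each group held only 88 and 38 of its cells. The other clusters of the class held under 20 cells in at least 1 library and were not split.

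In all cells ERAP2 had 46.3 and 58.3 CPM in the 1797 libraries, against 122 and 182 CPM in the control libraries. The log2 fold change was -1.54 ± 0.29 (SE), with rank 18 of 16654 genes by p and an edgeR adjusted p of 1.0. All 10 classes tested had a negative log2 fold change, and in 8 of them the groups did not overlap. It was -2.09 ± 0.39 in the CSF3R CXCR2 cluster (edgeR adjusted p of 0.623) and -1.98 ± 0.31 in neutrophil-like cells, where ERAP2 had 28.4 and 27.4 CPM with 1797, against 127 and 97.4 CPM with the control peptide. Macrophage-like cells had 7.12 and 6.64 CPM, against 16.0 and 28.7 CPM (-1.64 ± 0.32), but in the shallow macrophage-like cluster the groups overlapped, with 13.1 and 24.5 CPM, against 11.08 and 45.9 CPM. The deep cluster had 6.39 CPM in both 1797 libraries, against 15.5 and 26.4 CPM in the control libraries. Monocyte-like cells had 5.24 and 5.73 CPM, against 13.3 and 21.9 CPM (-1.60 ± 0.31). Dendritic cell-like cells had 9.13 and 10.8 CPM, against 20.02 and 34.4 CPM (-1.45 ± 0.36).

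The differences were smaller in lymphoid cells and not separated in vessel and bone-forming cells. B cell-like cells had 28.9 and 42.3 CPM in the 1797 libraries, against 76.1 and 80.7 CPM in the control libraries (-1.08 ± 0.20). T cell-like cells had 74.4 and 83.7 CPM, against 133 and 139 CPM (-0.77 ± 0.14), and NK or cytotoxic T-like cells had 102 and 112 CPM, against 145 and 159 CPM (-0.46 ± 0.16). Endothelial-like cells had 14.8 and 32.4 CPM with 1797, against 31.3 and 27.5 CPM with the control peptide, and stromal or osteoblast-like cells had 4.69 and 11.5 CPM, against 7.79 and 12.4 CPM; the groups overlapped in both. Whether the fold change differs between classes was not tested. Over the classes the edgeR adjusted p lay between 0.498 and 1.0.

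The CSF3R CXCR2 cluster supplied 27.3% and 39.9% of all ERAP2 UMIs with 1797, against 33.3% and 60.6% with the control peptide. Of kept cells it held 17.0% and 34.3% with 1797, against 15.4% and 24.6% with the control peptide. Its cells were shallow, and of the UMIs of all genes it held 3.99% and 7.60% with 1797, against 3.77% and 6.13% with the control peptide. Without this cluster ERAP2 had 35.1 and 37.9 CPM in the 1797 libraries, against 84.6 and 76.3 CPM in the control libraries, and the groups still did not overlap. For the other 7 genes the cluster supplied between 3.57% and 12.9% of the UMIs.

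Among 8 other peptidases 4 were higher and 4 lower in the 1797 libraries in all cells, with a median log2 fold change of 0.00 and 0 passing edgeR's test. LNPEP, an aminopeptidase of the same family that trims peptides in endosomes, had 60.7 and 63.2 CPM in the 1797 libraries, against 84.9 and 109 CPM in the control libraries (-0.66 ± 0.21). In the CSF3R CXCR2 cluster it had 122 and 88.3 CPM with 1797, against 205 and 363 CPM with the control peptide (-1.35). THOP1, a cytosolic peptidase that destroys peptides, had 6.01 and 5.45 CPM, against 6.26 and 4.80 CPM. BLMH, bleomycin hydrolase, had 50.1 and 38.2 CPM, against 46.5 and 36.3 CPM, and NPEPPS, the puromycin-sensitive aminopeptidase, had 242 and 283 CPM, against 226 and 247 CPM. The last 3 overlapped between the groups. Of the immunoproteasome and its activator, 5 of 5 genes were measured, 1 was higher and 4 lower, and 0 passed edgeR's test. The catalytic subunits PSMB8 (80.9 and 93.3 CPM with 1797, against 104 and 89.3 CPM with the control peptide) and PSMB10 (10.1 and 9.98 CPM, against 8.90 and 10.9 CPM) overlapped. PSMB9, encoded beside TAP1, had 24.6 and 24.3 CPM in the 1797 libraries, against 30.03 and 26.7 CPM in the control libraries, and PSME1 had 136 and 126 CPM, against 161 and 128 CPM.

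**Figure D4:**
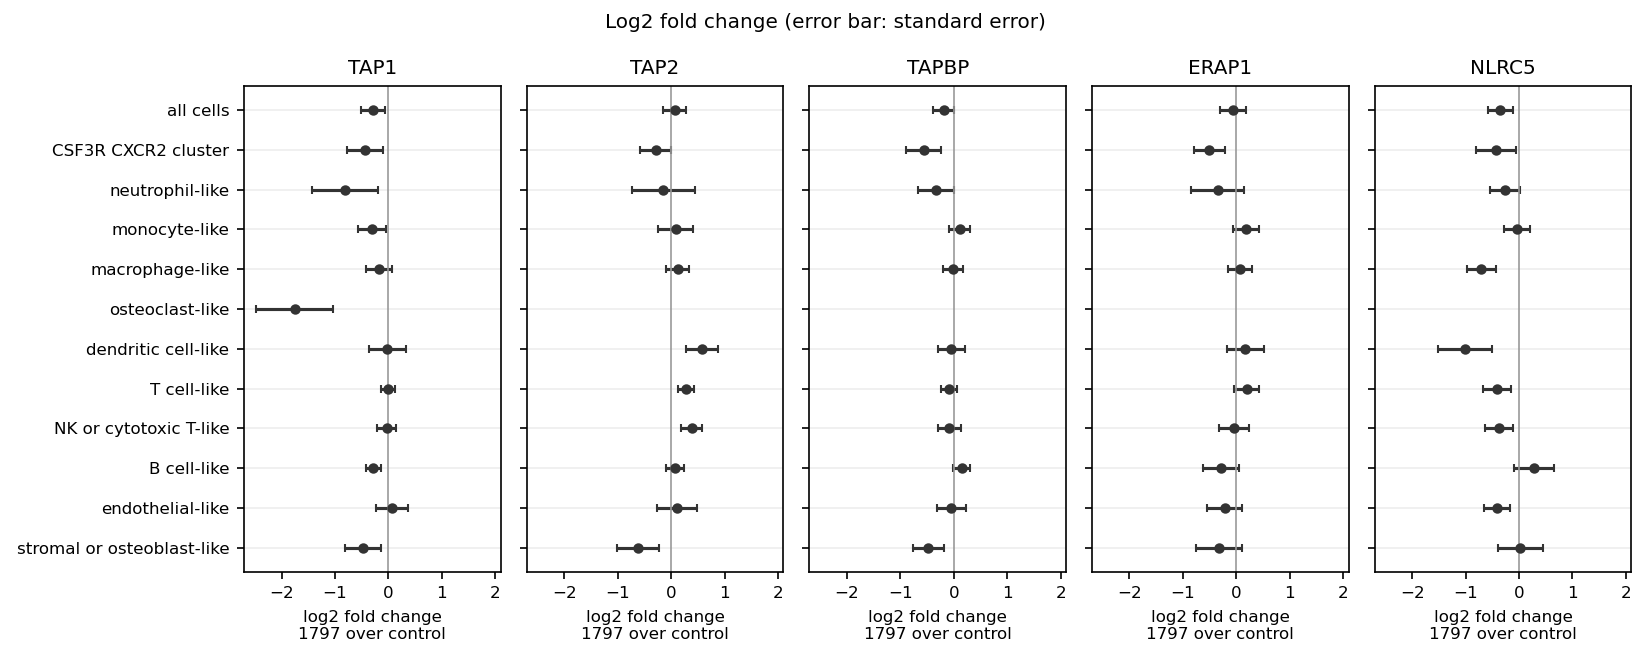
Log2 fold change, 1797 over control, of TAP1, TAP2, TAPBP, ERAP1 and NLRC5 in all cells and in each class, with the edgeR standard error as error bar. All points but those of TAP1 in osteoclast-like cells (-1.76) and NLRC5 in dendritic cell-like cells (-1.01) lie within 0.82 of 0; a missing point marks a class with too few counts to test.

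NLRC5, the class I transactivator, was highest in the lymphoid classes, the CSF3R CXCR2 cluster and neutrophil-like cells. Its highest means were in NK or cytotoxic T-like cells (291 ± 93.2 CPM), B cell-like cells (278 ± 89.9 CPM), T cell-like cells (212 ± 67.7 CPM) and the CSF3R CXCR2 cluster (210.3 ± 62.8 CPM), with overlapping ranges. Neutrophil-like cells came next (180 ± 37.2 CPM), with no overlap with the class below them, endothelial-like cells (79.7 ± 17.7 CPM). The lowest means were in macrophage-like (29.0 ± 10.8 CPM) and osteoclast-like cells (13.5 ± 4.54 CPM). B cell-like cells came first in both 1797 libraries and NK or cytotoxic T-like cells in both control libraries. In all cells NLRC5 had 137 and 141 CPM in the 1797 libraries, against 144 and 207 CPM in the control libraries (log2 fold change -0.35 ± 0.24, edgeR adjusted p of 1.0).

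By class, NLRC5 was below in both 1797 libraries in 3 of 10 classes and above in 0, where 20.7% of all tests over the classes lay below and 14.5% above. Macrophage-like cells had 25.3 and 17.9 CPM with 1797, against 29.1 and 43.6 CPM with the control peptide (-0.70 ± 0.27, edgeR adjusted p of 0.518). Endothelial-like cells had 62.7 and 70.3 CPM, against 103 and 82.4 CPM (-0.41 ± 0.24), and the CSF3R CXCR2 cluster had 141 and 195 CPM, against 212 and 293 CPM (-0.43 ± 0.38). The control libraries were themselves far apart in B cell-like cells (152 and 364 CPM), where the 1797 libraries had 308 and 289.6 CPM.

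None of the 9 partners of NLRC5 on class I promoters passed edgeR's test in any fit. All 9 had a negative log2 fold change in all cells, with a median of -0.06 against -0.02 over all genes, but over the class fits 44 of 96 tests were higher and 52 lower. In the CSF3R CXCR2 cluster 7 of 9 were lower, with a median of -0.29. Of these, 6 were without overlap, beside 23.6% of all genes tested there. This was not particular to the partners. Lower without overlap in that cluster were also 6 of 11 interferon-gamma signalling genes and 4 of 5 immunoproteasome genes. The counts were 3 of 8 for the loading chaperones, 3 of 6 for other class I genes with B2M and 2 of 7 for other peptidases. On the list of receptors that read class I the count was 0 of 4. RFX5, the DNA-binding subunit of the RFX complex, had 8.07 and 7.55 CPM with 1797, against 8.46 and 7.30 CPM. RFXAP had 13.8 and 11.99 CPM, against 11.5 and 14.4 CPM, and RFXANK 10.04 and 11.02 CPM, against 10.4 and 11.9 CPM in the control libraries. NFYA, a subunit of the CCAAT-binding factor, had 25.2 and 30.7 CPM with 1797, against 30.8 and 35.8 CPM with the control peptide. All but NFYA of these 4 overlapped. Of 12 genes of interferon-gamma signalling 4 were higher and 8 lower, with a median log2 fold change of -0.07. The cytokine IFNG had 3.11 and 2.68 CPM, against 4.92 and 2.34 CPM, and its receptor chains IFNGR1 (73.3 and 145 CPM, against 65.6 and 133 CPM) and IFNGR2 (288 and 405 CPM, against 337 and 307 CPM with the control peptide) overlapped too. JAK1, the kinase of the receptor, had 835 and 779 CPM with 1797, against 1049 and 781 CPM.

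Of a list of receptors that read class I, which also holds the T cell marker CD3E, 6 of 8 genes were measured. All 6 had a negative log2 fold change in the sum of all cells, 1 of them without overlap. The median was -0.63 against -0.02 over all genes. CD8A, the coreceptor of cytotoxic T cells, had 18.7 and 12.4 CPM in the 1797 libraries, against 31.6 and 20.6 CPM in the control libraries, in all cells. CD8B had 7.89 and 4.04 CPM, against 8.66 and 7.49 CPM, KLRK1 49.8 and 23.9 CPM, against 80.0 and 41.6 CPM, and KLRD1 1.95 and 0.982 CPM, against 5.12 and 1.69 CPM with the control peptide. NK or cytotoxic T-like cells, which carry these genes, numbered 1015 and 665 with 1797, against 2129 and 983 with the control peptide. Within these cells 4 of the 6 measured genes of the list were higher and 2 lower, 0 were lower without overlap, and the median log2 fold change was 0.02. KLRK1, for one, had 577 and 429 CPM there with 1797, against 439 and 456 CPM with the control peptide. In T cell-like cells, by contrast, 4 of the 5 genes of the list tested were lower, 2 of them without overlap, with a median of -0.24. Of 34 tests of this list over the class fits, 9 were higher and 25 lower. In 11 of the 34 both 1797 libraries lay below both control libraries, 32.4% beside 20.7% for all genes. The part of cell numbers in these values was not tested.

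Across the 44 sums of class and library, the genes most like each member were ranked by Pearson correlation of log2(CPM + 1) among 6221 genes with a mean of at least 20 CPM. These points share cells, depth and animals in sets of 11, so the values are a description. SLA-3 was most like SLA-1 (r = 0.78), followed by RLIM (0.74) and NSD3 (0.72). For LOC100513601 the values were lower, with FBXO6 (0.63), SLA-2 (0.61) and TGIF2 (0.60). LNPEP was most like ERAP2 (0.91), followed by IPMK (0.91) and PAFAH2 (0.90), and ERAP1 was most like BRD1 (0.86), UBN2 (0.85) and MEF2D (0.85).

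CREM (0.91) and LOC106505288 (0.90) were among the genes most like TAP1. TAP2 was nearest to LMBR1L (0.90), FBXO33 (0.90) and SSH2 (0.89), TAPBP to SREBF2 (0.93), SWT1 (0.91) and CCNT2 (0.90), and NLRC5 to ARID5B (0.92), EIF2AK3 (0.89) and ZNF292 (0.89). The median correlation over all 6221 genes was between -0.06 and 0.17 for each of the 8. Among the members themselves TAP1 and TAP2 had r = 0.88, ERAP2 and TAP1 0.82, ERAP2 and NLRC5 0.81, and ERAP1 and TAPBP 0.80, while SLA-1 and LOC100513601 had -0.06.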

How the data were processed

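The authors deposited unnormalized UMI counts for each gene in each barcode. The submitters' processing notes name Cell Ranger 5.0.0 and Sscrofa11.1, whereas the matrices carry version 7.0.1, per the file headers. Barcodes with at least 200 genes and under 20% mitochondrial counts were kept, and Scrublet (scanpy 1.11.5) called doublets. Cells were clustered on 2000 variable genes other than the 8 members, 30 principal components and 15 neighbours with Leiden at resolution 1.0 (igraph 0.11.9). A cluster was named from 16 marker lists where at least 3 markers were 2-fold above the median of the other clusters and no other type had more markers among its 10 leading genes. It was left unnamed where it was shallow with no leading marker of its own or carried many markers of another lineage. A best score for T cell gave way to NK or cytotoxic T where many markers of that list were carried. T cell markers among the leading genes then did not count against the name. The NK or cytotoxic T-like cluster was named in this way. It scored 2.94 for its own list and 3.07 for T cell, with 10 of 11 and 10 of 10 markers. Counts were summed per library and class, which held at least 50 cells in each library, and tested with edgeR 4.0.16 (quasi-likelihood, TMM, filter on low counts, no covariate, Benjamini-Hochberg within each fit). The edgeR step was tested on simulated data. The alternatives were DESeq2 1.42.0, RLE size factors, no low-count filter, a replicate block, leaving out libraries one at a time, keeping doublets, stricter cell filtering and other clusterings. With 2 libraries a group the smallest two-sided p of exact permutation is 0.333, so it was not used.

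All 8 members were described in all cells, and in a class with its fold change where both libraries of 1 group lay beyond both of the other, as were the 3 most similar genes and up to 4 genes of each pathway list in written order. 1 of the similar genes is not reported here. Members, lists and markers were chosen with earlier results of these data known. How clusters were named, and the handling of the CSF3R CXCR2 cluster as a class, were settled after the clusters were seen. Coordinates are counted from 1 and come from the RefSeq table of Sscrofa11.1. Depth ran from 3145.5 to 5345 median UMIs per cell, and intervals of shares are exact binomial ones at 95%.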

Additional observations from a re-analysis of the deposited data

Results flagged for a closer look

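ERAP1 lay on opposite sides in different classes with no overlap of the groups. It was higher in both 1797 libraries in monocyte-like cells (log2 fold change 0.178) and lower in endothelial-like cells (-0.214) and in the CSF3R CXCR2 cluster (-0.502). TAP2 did so too. It was higher in both 1797 libraries in dendritic cell-like (0.577), T cell-like (0.275) and NK or cytotoxic T-like cells (0.387), and lower in stromal or osteoblast-like cells (-0.616) and in the CSF3R CXCR2 cluster (-0.29). The differences between these classes were not tested, and none of these fold changes passed edgeR's test (lowest adjusted p 0.868).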

How the results depend on the processing

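With 2 libraries a group the number of calls depended on the tool and the filter. Genes called numbered 18 in all cells with DESeq2, and over the class fits 420 with DESeq2, 466 with no filter on low counts and 92 to 269 with 1 library left out, against 0 in each case by edgeR with all libraries. The members called over all fits were 17 with DESeq2 (SLA-1, ERAP2 and LOC100513601), 9 with no filter and 1 to 3 with 1 library left out, and SLA-1 and ERAP2 were the members called under both of these settings. With the replicate number as a block, 32 genes were called over the class fits and 2 members (ERAP2 in neutrophil-like and SLA-1 in osteoclast-like cells), and 0 in all cells. In all cells, same-numbered libraries deviated from their group means in opposite directions (r = -0.309 over 16654 genes). With 2 libraries a group the deviations mirror each other, so this single value cannot settle whether the numbers pair libraries. The crossed pairing, chosen after seeing the data, called 62 genes and 3 members.

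The log2 fold change of SLA-1 in all cells ran from 1.16 to 1.42 with 1 library left out, that of LOC100513601 from -1.63 to -0.92 and that of ERAP2 from -1.79 to -1.22. In these fits the lone library of a group is assumed to vary like the others. Of 769 values under the alternatives 4 changed sign: ERAP1 in all cells (0.12 without 1797 library 1 and 0.13 without control library 2), TAP2 in all cells (-0.0527) and TAPBP in endothelial-like cells (0.0249), both without control library 2. With 1 library left out, these ran from -0.247 to 0.13, from -0.0527 to 0.243 and from -0.0885 to 0.0249. The cause was not tested. The class with the highest mean of each member stayed the same with doublets kept, the stricter filter, Leiden resolutions 0.5 and 2.0, and the members among the variable genes. The lowest class was less stable. Osteoclast-like cells were not among the 10 classes compared under the stricter filter or at resolution 0.5. In the other settings they stayed lowest for SLA-1, TAPBP and NLRC5. For LOC100513601, ERAP1, ERAP2, TAP1 and TAP2 the lowest class changed in at least 1 of those settings. Depth limits the osteoclast-like and the first neutrophil-like libraries most, where some members rest on 5 UMIs or fewer.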

Other observations

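In 4 classes too small to test, SLA-1 kept its direction in 3. Plasma cell-like cells had 1637 and 1456 CPM of SLA-1 in the 1797 libraries, against 599.7 and 640.1 CPM in the control libraries. Mural-like cells had 749.6 and 978 CPM, against 392 and 299.5 CPM with the control peptide, and erythroid-like cells 239 and 261 CPM, against 98.3 and 126 CPM, the first value resting on 6 UMIs. Eosinophil-like cells did not follow, with 945 and 1763 CPM with 1797, against 1240.4 and 722 CPM with the control peptide. ERAP2 in eosinophil-like cells had 41.1 and 191 CPM in the 1797 libraries, against 470.2 and 226 CPM in the control libraries, the first from 3 UMIs in 38 cells. ERAP2 in plasma cell-like cells had 60.6 and 52.4 CPM with 1797, against 49.2 and 47.3 CPM with the control peptide, which was the other way round from the 10 classes tested. NLRC5 was high in plasma cell-like cells, with 267 and 365 CPM in the 1797 libraries, against 326 and 367 CPM in the control libraries, which overlapped. These values come from 135 plasma cell-like, 450 mural-like, 376 erythroid-like and 774 eosinophil-like cells and were not tested.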
